A study of Homo sapiens with 60 samples.

Results

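The genes described here encode the protein subunits of oxidative phosphorylation that come from the nuclear genome. A gene was a member when its platform symbol was NDUF followed by A, B, C, S or V and a number, SDHA to SDHD, a symbol beginning with UQCR, a COX symbol of the nuclear-encoded families or an ATP5 symbol, and CYC1 and CYCS were added. Of the 19775 genes with a probe set of their own, 76 matched, 1 of them a pseudogene that was left out, so 75 genes were members. They comprised 32 genes of complex I, 3 of complex II (SDHA, SDHC and SDHD), 7 of complex III, 14 of complex IV, 18 of complex V and CYCS. SDHB is not analysed here. For NDUFC2, NDUFS5, NDUFS8, UQCRH and UQCRHL a matching symbol occurred only on probe sets that name several genes, so these 5 were not members. The rule used names alone and no measured value, but the set was chosen with earlier results of these data known.

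Oxidative phosphorylation is the stage of respiration that takes place at the inner membrane of mitochondria. Complexes I and II feed electrons from NADH and succinate to ubiquinone, complex III passes them to cytochrome c and complex IV passes them to oxygen, while complexes I, III and IV pump protons that complex V, the ATP synthase, lets back through to make ATP. The catalytic core of most complexes is built partly from subunits made on mitochondrial DNA, and the larger number of subunits comes from nuclear genes whose transcription is known to involve the factors NRF1, GABP (an ETS factor), YY1 and the mTOR-dependent pair of YY1 with PGC-1alpha.

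RNA from 3 human breast epithelial lines was measured on 60 Affymetrix arrays, 5 arrays in each of 12 groups from separate experiments numbered 1, 2, 3, 4 and 6. SKBR3 is a mammary adenocarcinoma line with high HER-2 (ERBB2), HB4a is a line from normal breast epithelium, and C5.2 was made from HB4a by transfecting a full-length HER-2 cDNA. Each line received 30 nM doxorubicin, a DNA-damaging anthracycline that also poisons topoisomerase II, 20 nM rapamycin, an inhibitor of mTOR complex 1, both drugs at those doses, or DMSO vehicle. The labels used here give no time of harvest and no promoter for the HER-2 cDNA, and C5.2 and SKBR3 are each a single line. The values are log2 probe set summaries, and no level is set against that of another gene.

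In vehicle, ERBB2 averaged 11.48 ± 0.35 in SKBR3, 12.06 ± 0.25 in C5.2 and 6.67 ± 0.23 in HB4a (log2, SD, n = 5 each), so the HER-2 labels held. Of 5 luminal genes, the keratins KRT8, KRT18 and KRT19 were above a log2 value of 5 on all 20 arrays of each line. EPCAM passed it on 18 C5.2, 20 HB4a and 20 SKBR3 arrays. CDH1 (E-cadherin) passed it on 16 C5.2, 20 HB4a and 1 of 20 SKBR3 arrays. Of the leukocyte genes, PTPRC, CD3E and LYZ passed it on 0 arrays of any line and CD14 on 1 C5.2 array, at 5.12. Of 6 mesenchymal genes, VIM passed it on all 20 C5.2 and all 20 HB4a arrays, COL3A1 on all 20 C5.2 arrays (9.88 to 11.18) and 0 of the others, and DCN on 13 C5.2 and 20 HB4a arrays, while COL1A1, COL1A2 and LUM passed on 0 arrays of any line. In vehicle VIM and COL3A1 were higher in C5.2 than in HB4a, by 2.49 and 8.16, and DCN was lower, with a difference of -1.41. All 5 luminal genes were also lower in C5.2 than in HB4a (median difference -2.13, 49.2% of all genes called). The basal keratin KRT5 was lower there too, with a difference of -3.06. In SKBR3 against HB4a 3 of the 5 luminal genes were higher and 1 was lower. Array medians over all probe sets ranged from 1.41 to 1.71. The number of arrays limits the precision. Arrays that stood apart from their group were number 1 in all HB4a groups with HB4a rapamycin 4, number 2 in all C5.2 groups, and number 1 in all SKBR3 groups with SKBR3 vehicle 3.

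Testing needed a log2 value over 5 on 5 or more of the arrays in a fit, and a change counts below when the limma p, adjusted over all genes by Benjamini-Hochberg, was under 0.05. Of the 75 members, 70 were tested in SKBR3 and 69 each in C5.2 and HB4a. COX7B2 was the member tested in SKBR3 alone among the lines. The 5 members that passed in no line were the muscle or testis isoforms COX6A2, COX6B2, COX7A1 and COX8C, and ATP5MF, a small subunit of the ATP synthase membrane part. Over the 60 arrays COX6A2 lay between 1.21 and 2.03, COX6B2 between 1.5 and 2.93, COX7A1 between 0.68 and 1.61, and COX8C between -0.28 and 0.43. ATP5MF lay between 1.07 and 1.88 on its own probe set, and between 9.91 and 10.8 on a probe set shared with ARMC2-AS1, so the low value of its own probe set does not show that its RNA was low.

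Rapamycin lowered members in C5.2 at a share above that of all genes, and in SKBR3 at a share near it. No member passed the test of a different rapamycin response from HB4a in either line without the block. In C5.2, 24 of 69 members fell and 0 rose (17.4% of all genes tested were called), and 61 of 69 differences from vehicle were below 0. Over all genes tested 3868 of 6292 differences were below 0, and of the genes called 919 fell and 178 rose. The member falls were 11 of 32 in complex I, 0 of 3 in complex II, 4 of 7 in complex III, 3 of 9 in complex IV and 6 of 17 in complex V. The median difference was -0.17 in complex I, -0.18 in II, -0.22 in III, -0.18 in IV and -0.19 in V. In SKBR3, 11 of 70 members fell and 1 rose (18.3% of all genes called), so the share of members called there was near the background. In HB4a, 0 members rose and 1 fell (3.18% of all genes called). An unadjusted p under 0.05 in limma was reached there by 11 of 69 members and 919 of 6167 genes. The median member difference from vehicle was -0.13 in SKBR3, -0.18 in C5.2 and -0.02 in HB4a, while the medians over all genes tested were -0.03, -0.08 and 0.01 in that order of lines. After quantile normalization the SKBR3 member median was -0.07.

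Epithelial markers moved with rapamycin in C5.2 and in HB4a. Of 5 luminal genes, 1 fell with rapamycin in C5.2 (KRT19, difference -1.06) and 1 in HB4a (KRT19, -0.74), and 0 of 4 tested passed in SKBR3. The basal keratin KRT5 fell by 0.97 in C5.2 and by 1.01 in HB4a, and was under the filter in SKBR3, as was KRT14 in every line. Per array, the log2 of the summed luminal signal lay between 10.37 and 11.09 with rapamycin and between 10.88 and 11.42 in vehicle in C5.2, and that of the 2 basal genes lay between 5.75 and 6.72 with rapamycin and between 6.60 and 7.78 in vehicle. With both drugs KRT19 fell by 1.87 and KRT5 by 1.94 in C5.2, where the mesenchymal genes DCN and COL3A1 fell by 1.54 and 0.53. In HB4a both drugs lowered KRT19 by 1.14, KRT5 by 1.58 and DCN by 0.88, and in SKBR3 KRT19 by 0.16. The part of these changes in the member results was not tested.

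**Figure D1:**
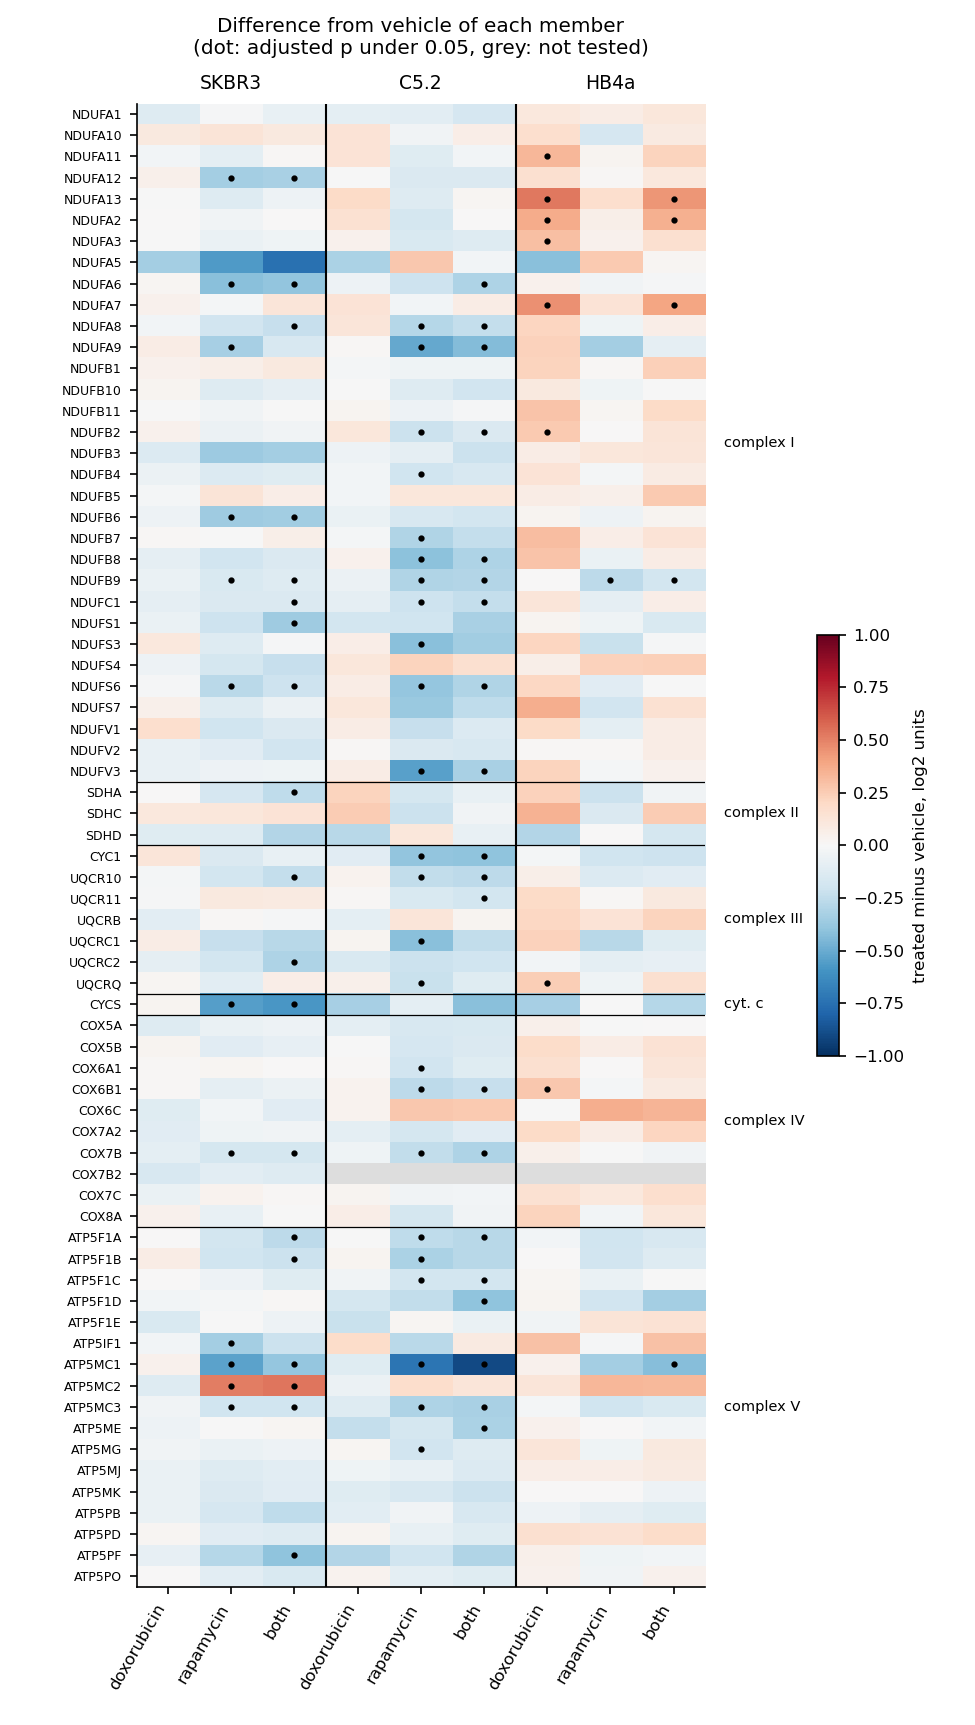
Each row is 1 member, grouped by complex, and each column 1 treatment in 1 line; colour gives the difference from vehicle in log2 units, a dot an adjusted p under 0.05 and grey a member not tested. The columns for rapamycin and for both drugs are mostly below 0 in SKBR3 and C5.2, with 11 and 24 falls under rapamycin, and the doxorubicin column of HB4a is mostly above 0, with 8 rises.

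The summed picture by array showed the same spread. A score per array was the median, over members, of the array's deviation from the vehicle mean of its line. In SKBR3 it averaged -0.112 with rapamycin (range -0.209 to -0.014) and 0.003 in vehicle (-0.073 to 0.097), so the ranges overlapped. Within the same-numbered pairs, rapamycin lay below vehicle in 5 of 5 in SKBR3, by -0.208 to -0.004, and in 5 of 5 in C5.2, against 2 of 5 in HB4a. In C5.2 it averaged -0.180 with rapamycin (range -0.232 to -0.108) and 0.001 in vehicle (-0.045 to 0.070), with no overlap. The same score over all genes averaged -0.085 with rapamycin in C5.2 and -0.030 in SKBR3, so all genes moved the same way by less. In HB4a the score averaged -0.028 with rapamycin and 0.009 in vehicle. In bulk samples, fewer cells that hold an RNA and less of it per cell cannot be told apart.

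**Figure D2:**
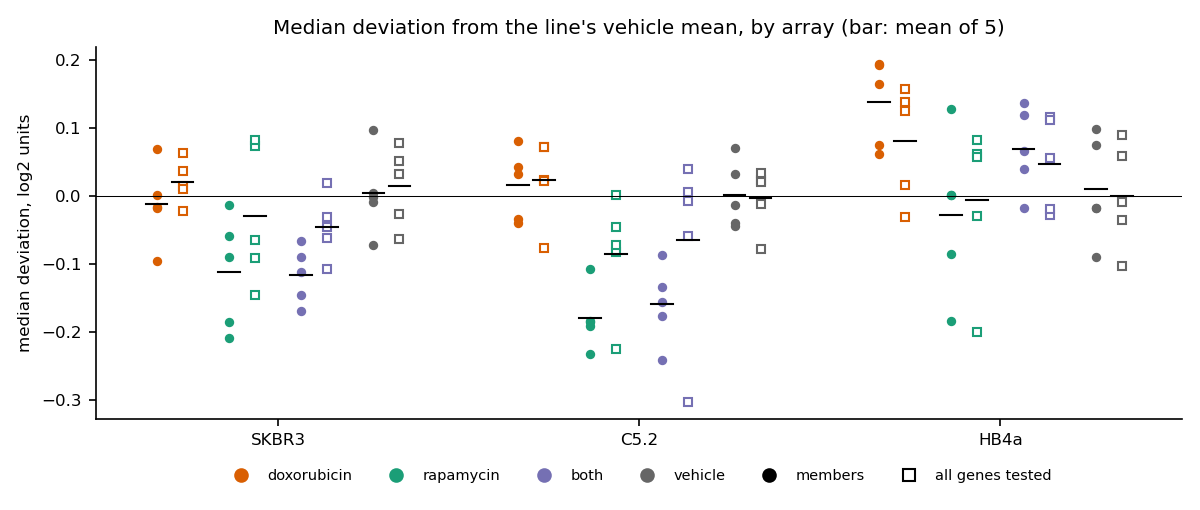
Each point is 1 array, plotted as its median deviation from the vehicle mean of its line in log2 units, over the members and over all genes tested, with group means. All 5 C5.2 rapamycin arrays (-0.232 to -0.108) lie below all 5 C5.2 vehicle arrays (-0.045 to 0.070) over the members.

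ATP5MC1 gave the largest fall in C5.2. It is 1 of 3 nuclear genes, with ATP5MC2 and ATP5MC3, that encode subunit c, the ring protein of the rotor of ATP synthase; the 3 differ in their mitochondrial import peptides, and the mature protein is the same. The stretches of 150 bases before the annotated starts of ATP5MC1 (chr17:48892637-48892786, plus strand) and ATP5MC2 (chr12:53676084-53676233, minus strand) are shown because these 2 genes moved in opposite directions. The stretch of NDUFA9 (chr12:4648964-4649113, plus strand) is shown as that of a complex I gene whose fall passed in C5.2 and SKBR3. Its HB4a difference, given below, was also below 0. They are from the RefSeq promoter table of build GRCh38.p14, printed 5′ to 3′. Capitals mark a match to the NRF1 letters, GCGCA followed by any base and GCGC, on either strand.
ATP5MC1: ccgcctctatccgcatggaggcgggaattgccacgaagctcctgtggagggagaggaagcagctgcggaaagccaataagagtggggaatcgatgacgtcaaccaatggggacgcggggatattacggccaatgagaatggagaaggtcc
ATP5MC2: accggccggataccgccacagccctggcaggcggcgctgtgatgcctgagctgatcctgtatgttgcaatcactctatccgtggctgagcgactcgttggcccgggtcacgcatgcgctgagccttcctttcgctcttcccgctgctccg
NDUFA9: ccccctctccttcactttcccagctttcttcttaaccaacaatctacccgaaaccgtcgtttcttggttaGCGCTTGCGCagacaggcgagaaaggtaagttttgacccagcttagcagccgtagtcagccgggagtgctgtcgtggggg

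The NDUFA9 stretch holds 1 such match, on the opposite strand to the gene, and the ATP5MC1 and ATP5MC2 stretches hold none of the 4 motifs searched. A promoter window of 300 bases (250 before the start and 50 after it) was in the table for 64 of the 75 members. The NRF1 letters were in 16 of these 64 windows (25.0%), against 12.8% of the 6454 tested genes with a window and 6.28% of all 27305 windows. The YY1 letters AANATGGCG were in 13 (20.3%), against 7.62% of tested genes and 3.37% of all windows. The ETS letters CCGGAAG were in 17 (26.6%), against 20.5% and 10.7%, and the SP1 letters GGGCGG in 38 (59.4%), against 73.0% and 44.6%. Each motif was sought on both strands and overlaps between motifs were allowed. A match to letters is a description of the sequence and not a bound site.

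In C5.2, ATP5MC1 had 8.51, 8.69, 8.15, 8.28 and 8.52 with rapamycin, against 9.13, 9.41, 8.94, 9.06 and 9.24 in vehicle (log2, experiments 1, 2, 3, 4 and 6). Every rapamycin array lay below every vehicle array, and within each group experiment 2 was highest and experiment 3 lowest. The difference was -0.73 ± 0.13 (SE, adjusted p = 0.000802). In SKBR3 the gene had 8.36, 8.20, 8.33, 8.29 and 8.29 with rapamycin, against 8.91, 8.92, 8.72, 8.68 and 8.91 in vehicle. The groups were again apart, by -0.53 ± 0.08 (SE, adjusted p = 4.23e-05). In HB4a it had 8.23, 8.79, 8.27, 8.72 and 8.61 with rapamycin, against 8.86, 8.94, 8.71, 8.79 and 9.0 in vehicle. These groups overlapped, and the difference of -0.34 ± 0.11 (SE) did not pass (adjusted p = 0.116), whereas it passed once the experiment number was a block (adjusted p = 0.0299). The rapamycin difference was 0.39 more negative in C5.2 than in HB4a, which did not pass the test of the difference (adjusted p = 0.946). The members most like ATP5MC1 over the 12 group means were CYC1 (Pearson r = 0.869), UQCR10 (0.869) and ATP5F1A (0.866), given as a description of group means that share their line and treatment.

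**Figure D3:**
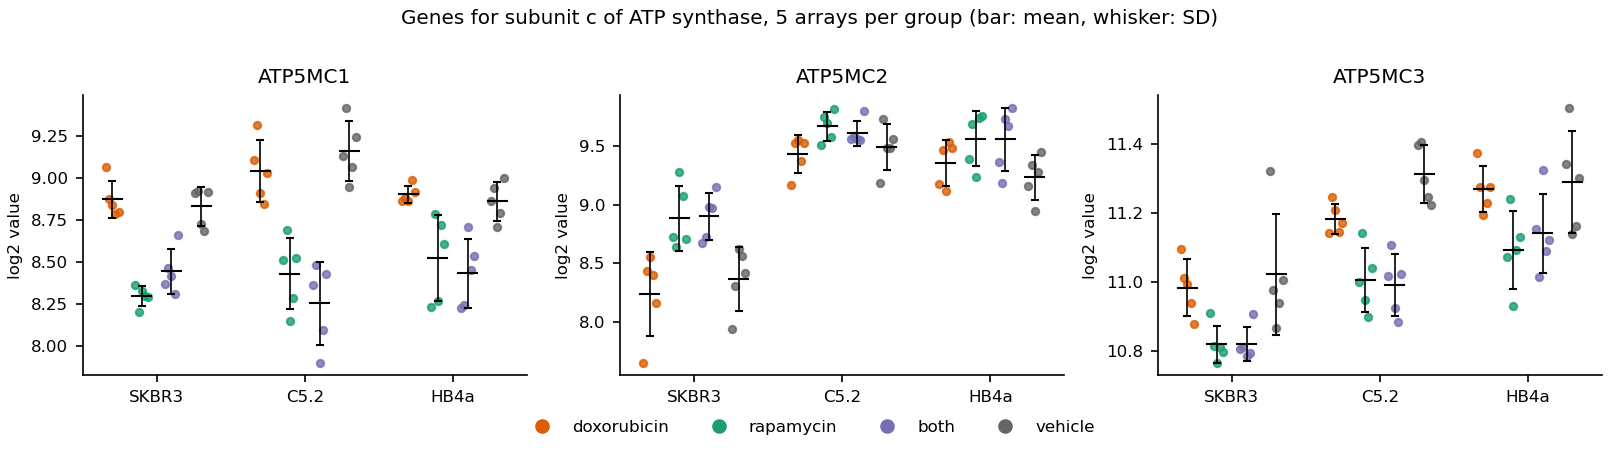
Each point is the log2 value of 1 array for the 3 genes of ATP synthase subunit c, by line and treatment, with the group mean and SD (n = 5). ATP5MC1 is lower with rapamycin and with both drugs than in vehicle in SKBR3 and C5.2 without overlap, and ATP5MC2 is higher in SKBR3.

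ATP5MC2 was the single member that rose with rapamycin in SKBR3. It had 8.72, 8.64, 9.28, 9.07 and 8.7 with rapamycin, against 7.94, 8.31, 8.62, 8.56 and 8.41 in vehicle. All rapamycin arrays lay above all vehicle arrays, by a narrow margin, and the difference was 0.52 ± 0.16 (SE, adjusted p = 0.0334). It did not pass when SKBR3 rapamycin 3 or 4 or SKBR3 vehicle 1 or 2 was left out (adjusted p from 0.0539 to 0.103). In C5.2 the difference was 0.18 (adjusted p = 0.194; 0.0169 with the experiment number as a block) and in HB4a 0.33 (adjusted p = 0.214; 0.0298 with the block). ATP5MC3 fell in C5.2 by 0.31 (adjusted p = 0.000677) and in SKBR3 by 0.20 (adjusted p = 0.0345), and its HB4a difference was -0.20 (adjusted p = 0.149). The 3 genes of 1 protein thus gave differences of both signs in SKBR3.

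In complex I, NDUFB9, an accessory subunit of the membrane arm, fell with rapamycin in all 3 lines. It had 12.01, 11.99, 11.87, 11.89 and 11.90 with rapamycin in SKBR3, against 12.22, 12.07, 11.94, 12.09 and 12.09 in vehicle (difference -0.15, adjusted p = 0.0162). In C5.2 it had 10.52, 10.74, 10.45, 10.43 and 10.53, against 10.92, 10.92, 10.72, 10.78 and 10.83 (difference -0.30, adjusted p = 0.00279). The HB4a arrays had 10.25, 10.46, 10.25, 10.41 and 10.33, against 10.54, 10.76, 10.43, 10.64 and 10.63 (difference -0.26, adjusted p = 0.0185). The groups overlapped in each line. In HB4a the fall did not pass without HB4a rapamycin 3 or without HB4a vehicle 2, where the adjusted p was 0.0574 to 0.0655.

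NDUFA9, an accessory subunit at the junction of the 2 arms, fell in both lines with high HER-2. It had 7.70, 7.61, 7.70, 7.68 and 7.61 with rapamycin in SKBR3, against 8.02, 8.15, 8.0, 7.88 and 7.91 in vehicle, a difference of -0.33 (adjusted p = 0.00734). In C5.2 it had 8.0, 8.21, 7.84, 7.88 and 8.09, against 8.45, 8.75, 8.41, 8.5 and 8.49, a difference of -0.51 (adjusted p = 0.00341). Neither pair of groups overlapped. The HB4a difference was -0.34 (adjusted p = 0.171; 0.00367 with the experiment number as a block). NDUFV3, a small subunit of the NADH-binding module, had 7.51, 7.82, 7.52, 7.58 and 7.78 with rapamycin in C5.2, against 7.93, 8.41, 8.09, 8.22 and 8.29 in vehicle. It fell by 0.55 there (adjusted p = 0.00174), while its differences were -0.05 in SKBR3 and -0.02 in HB4a. In SKBR3 the largest complex I fall was that of NDUFA6, by 0.42 (adjusted p = 0.00335), and NDUFB6 and NDUFA12 fell by 0.35 and 0.34.

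The electron carriers differed between the lines in what passed. CYCS, which encodes cytochrome c, had 10.14, 9.69, 9.83, 10.26 and 9.92 with rapamycin in SKBR3, against 10.76, 10.27, 10.43, 10.64 and 10.48 in vehicle. The groups met at 10.26 and 10.27 without overlap, and the fall was 0.55 ± 0.14 (SE, adjusted p = 0.00772). In C5.2 and HB4a the CYCS differences were -0.10 and -0.00 (adjusted p = 0.747 and 0.998), and its difference between SKBR3 and HB4a in the rapamycin response, -0.54, did not pass (adjusted p = 0.391). CYC1, the cytochrome c1 of complex III, had 9.45, 9.83, 9.45, 9.48 and 9.75 with rapamycin in C5.2, against 9.88, 10.20, 9.80, 10.00 and 10.03 in vehicle. The fall was 0.39 (adjusted p = 0.0328), with 1 rapamycin array, number 2, inside the vehicle range, and it did not pass in 6 of 10 fits that each left out 1 array (adjusted p from 0.0619 to 0.101). UQCRC1, a core protein of complex III, and UQCR10 and UQCRQ, small subunits of it, fell in C5.2 by 0.42, 0.25 and 0.22. In complex II, 0 of 3 members passed with rapamycin in any line. SDHA, the flavoprotein that oxidises succinate, differed by -0.17 in SKBR3, -0.18 in C5.2 and -0.22 in HB4a (adjusted p = 0.137, 0.0902 and 0.355; 0.0338, 0.00642 and 0.026 with the block).

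**Figure D4:**
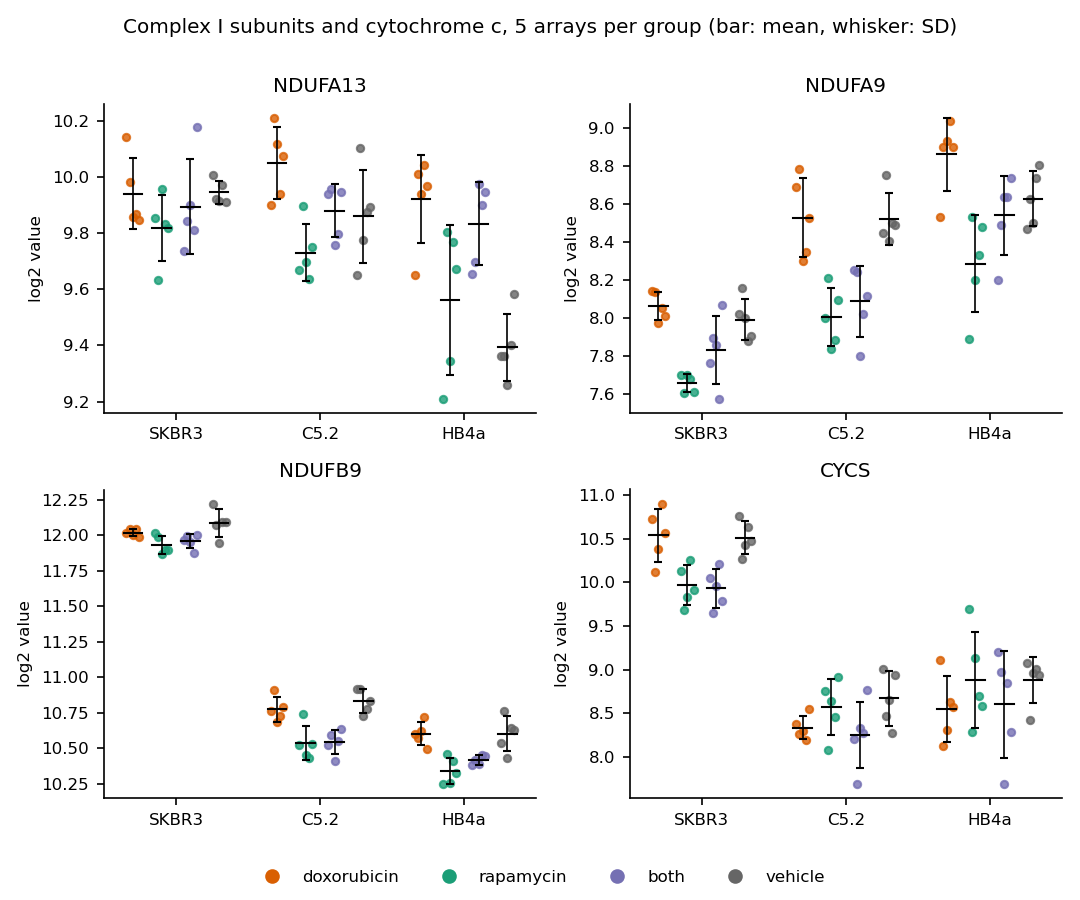
Each point is the log2 value of 1 array for NDUFA13, NDUFA9, NDUFB9 and CYCS, by line and treatment, with the group mean and SD (n = 5). NDUFA13 is higher with doxorubicin than in vehicle in HB4a, and CYCS lies higher in SKBR3 than in the other lines and lower there with rapamycin.

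Of the members that fell with rapamycin, 6 were shared by C5.2 and SKBR3: ATP5MC1, ATP5MC3, COX7B, NDUFA9, NDUFB9 and NDUFS6. That is 6 of 24 in C5.2 and 6 of 11 in SKBR3. Shared falls were not counted over all genes, so the 6 are given as a list and not as a result about the members. NDUFS6 is a small subunit of the complex I matrix arm, and COX7B a small subunit of complex IV. With the experiment number as a block, which the check of pairing allowed for these contrasts, the counts were 1 rise and 28 falls in SKBR3 (41.8% of all genes called), 2 rises and 43 falls in C5.2 (44.2%), and 2 rises and 9 falls in HB4a (16.3%). The HB4a fit with the block also held the arrays with both drugs, whose numbers did not pass that check. So did the C5.2 fit, where those numbers did not pass it against vehicle. Of the calls, 8 of 12 in SKBR3 and 14 of 24 in C5.2 held in every fit that left out 1 array. Those lost in SKBR3 in at least 1 such fit were ATP5MC2, ATP5MC3, COX7B and NDUFB9. The C5.2 count was 14 without C5.2 rapamycin 4 and 14 without C5.2 vehicle 2, and 13 after quantile normalization.

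With both drugs more members fell than rose in SKBR3 and C5.2, though none differed in response between C5.2 and HB4a without the block. In SKBR3 18 of 70 members fell and 1 rose, 27.1% of members against 22.0% of all genes called. In C5.2 20 of 69 fell and 0 rose, 29% against 21.0%. In HB4a 3 members rose and 2 fell, 7.25% against 17.4%, below the background. These comparisons share their vehicle arrays with those of rapamycin, so the lists are not independent. ATP5MC1 had 8.36, 8.48, 7.90, 8.10 and 8.43 with both drugs in C5.2, all below the vehicle arrays, and its fall was 0.90 (adjusted p = 4.99e-05). It fell by 0.39 in SKBR3 (adjusted p = 0.00136) and by 0.43 in HB4a (adjusted p = 0.00985), so with both drugs it fell in all 3 lines, as did NDUFB9 by 0.13, 0.29 and 0.18 (SKBR3, C5.2, HB4a). The NDUFB9 fall in SKBR3 did not pass in 7 of 10 fits that left out 1 array (adjusted p from 0.0566 to 0.128), nor that in HB4a in 9 of 10 fits that left out 1 array (adjusted p from just over 0.05 to 0.127). ATP5MC2 rose by 0.53 in SKBR3 (adjusted p = 0.026, and 0.0568 to 0.0829 without SKBR3 both 3 or 6 or SKBR3 vehicle 1).

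CYCS fell by 0.58 with both drugs in SKBR3 (adjusted p = 0.00547), where all arrays (9.65 to 10.22) lay below all vehicle arrays (10.27 to 10.76). Its C5.2 difference of -0.42 did not pass (adjusted p = 0.1). ATP5PF, a peripheral stalk subunit of ATP synthase, and NDUFA6 each fell by 0.40 in SKBR3, and NDUFA9 fell by 0.43 in C5.2. SDHA had 9.15, 9.35, 9.30, 9.57 and 9.37 with both drugs in SKBR3, against 9.44, 9.62, 9.69, 9.58 and 9.68 in vehicle, and fell by 0.25 (adjusted p = 0.0246). That was the 1 change in complex II with both drugs, and it did not pass without SKBR3 both 1 or 3 or SKBR3 vehicle 3 or 6 (adjusted p from 0.0522 to 0.0688). In C5.2, ATP5F1D, the delta subunit of the ATP synthase stalk, fell by 0.40 and passed in 3 of 10 fits that left out 1 array (adjusted p up to 0.12 in the others). CYC1 fell by 0.40 there (adjusted p = 0.025), but not past the threshold without C5.2 both 3 or 4 or C5.2 vehicle 2 or 6 (adjusted p from 0.0535 to 0.08). With the block, which pairing allowed in SKBR3 alone for this contrast, 1 member rose and 28 fell in SKBR3 (50.5% of all genes called). The share of members called there was then below that of all genes. The block gave 43 calls in C5.2 (43.3% of all genes) and 17 in HB4a (37.4%), where the numbers did not pair the arrays. The SKBR3 count of 19 was 8 without SKBR3 vehicle 1, 9 without SKBR3 both 2 or 3, 11 without SKBR3 vehicle 3 and 12 without SKBR3 both 6. Of the calls, 7 of 19 in SKBR3, 13 of 20 in C5.2 and 2 of 5 in HB4a held in every fit that left out 1 array. The C5.2 count was 13 without C5.2 both 4 or without C5.2 vehicle 2.

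With both drugs against doxorubicin alone, 12 of 70 members fell and 1 rose in SKBR3, 18.6% of members against 22.0% of all genes called, and the median difference was -0.07 over members and over all genes, so the members did not stand out from the background there. In C5.2 17 of 69 fell and 0 rose (13.5% of all genes called). That count was 9 without C5.2 both 3, 10 without C5.2 both 4, 11 without C5.2 doxorubicin 2 and 9 after quantile normalization. In HB4a 0 rose and 1 fell (2.58%). The HB4a member was ATP5MC1, which fell by 0.47 (adjusted p = 0.0229, and 0.0515 to 0.0666 without HB4a both 1, 2 or 4 or HB4a doxorubicin 4). In SKBR3, CYCS fell by 0.61 and ATP5MC2 rose by 0.66 against doxorubicin alone. With both drugs against rapamycin alone, no member passed in SKBR3 (0.552% of all genes called) or in C5.2 (6.39%). An unadjusted p under 0.05 in limma was reached by 0 of 70 members and 426 of 5977 genes in SKBR3. In C5.2 it was reached by 3 of 69 members and 1056 of 6292 genes. The HB4a differences were above 0 for 56 of 69 members and 3417 of 6167 genes, with medians of 0.08 and 0.03. In HB4a 1 rose (8.84%), SDHC, a membrane anchor of complex II, by 0.40 (adjusted p = 0.0342), which did not pass in 7 of 10 fits that left out 1 array (adjusted p from 0.0525 to 0.0961). With the block, both drugs against doxorubicin gave 2 rises and 25 falls in SKBR3 (49.6% of all genes called) and 2 rises and 39 falls in C5.2 (38.0%), and both drugs against rapamycin gave 5 rises and 2 falls in C5.2 (22.2%).

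Doxorubicin alone raised a few members, in HB4a. There 8 of 69 rose and 0 fell (11.4% of all genes called), so the share was near the background. Differences were above 0 for 59 of 69 members and for 3735 of 6167 genes. The rises were 6 of 32 in complex I, 1 of 7 in complex III (UQCRQ, by 0.25) and 1 of 9 in complex IV (COX6B1, by 0.27), while 0 of 17 passed in complex V. The median difference was 0.20 in complex I and 0.04 in complex V, 0.12 over all members and 0.06 over all genes tested. In C5.2 0 members passed (3.26% of all genes called), and in SKBR3 0 passed (0.837%). An unadjusted p under 0.05 in limma was reached by 8 of 69 members and 904 of 6292 genes in C5.2. In SKBR3 it was reached by 0 of 70 members and 427 of 5977 genes.

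The largest rise was in NDUFA13, an accessory subunit of complex I also known as GRIM-19. The 150 bases before its annotated start (chr19:19516075-19516224, plus strand) and before that of NDUFA7, a matrix arm subunit that also rose (chr19:8321376-8321525, minus strand), are shown in the same form, with capitals for a match to the ETS letters CCGGAAG, of which the first stretch holds 1.
NDUFA13: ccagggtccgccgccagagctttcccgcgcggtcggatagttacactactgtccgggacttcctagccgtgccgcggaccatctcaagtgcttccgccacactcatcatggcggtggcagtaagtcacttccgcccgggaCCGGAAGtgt
NDUFA7: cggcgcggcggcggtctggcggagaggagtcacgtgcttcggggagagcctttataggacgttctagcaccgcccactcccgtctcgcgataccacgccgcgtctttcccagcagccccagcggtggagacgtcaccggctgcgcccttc

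NDUFA13 had 9.65, 10.01, 9.94, 10.04 and 9.97 with doxorubicin in HB4a, against 9.36, 9.36, 9.26, 9.40 and 9.58 in vehicle. Every treated array was above every vehicle array, though number 1 lay closer to vehicle than the other 4 did. The rise was 0.53 ± 0.11 (SE, adjusted p = 0.00309), and with both drugs it was 0.44 (adjusted p = 0.00726). NDUFA7 rose by 0.46 with doxorubicin (adjusted p = 0.0145) and by 0.39 with both drugs (adjusted p = 0.0238). NDUFA2, a small matrix arm subunit, rose by 0.37 (adjusted p = 0.028) and by 0.35 with both drugs (adjusted p = 0.0253). The NDUFA2 rise with doxorubicin did not pass without HB4a doxorubicin 2, 4 or 6 or HB4a vehicle 1 or 3 (adjusted p from 0.0568 to 0.0784). With both drugs neither NDUFA7 nor NDUFA2 passed without HB4a both 3, 4 or 6 or HB4a vehicle 3 (adjusted p from 0.0564 to 0.079), nor NDUFA2 without HB4a vehicle 1.

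The other rises in HB4a with doxorubicin were NDUFA11, NDUFA3 and NDUFB2, by 0.33, 0.30 and 0.26. In complex II, SDHC had a difference of 0.35 (adjusted p = 0.061; 0.00337 with the block), SDHA of 0.23 (adjusted p = 0.179; 0.00855 with the block) and SDHD, the other membrane anchor, of -0.29 (adjusted p = 0.474). With the block the HB4a count was 23 rises and 0 falls (32.7% of all genes called), in C5.2 4 rises and 5 falls (17.4%) and in SKBR3 0 rises and 1 fall (5.0%). That HB4a fit also held the arrays with both drugs, whose numbers did not pair. The C5.2 fit held its arrays with both drugs too, whose numbers did not pair with vehicle. The HB4a count was 4 without HB4a doxorubicin 2, 4 or 6 or HB4a vehicle 1 or 3, 5 without HB4a vehicle 4, and 18 without the HB4a arrays that stood apart. NDUFA13, NDUFA7, NDUFA11 and NDUFB2 were called in every fit that left out 1 array.

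The difference between lines in a response was tested directly. For doxorubicin, NDUFA13 passed: its difference from vehicle was -0.00 in SKBR3 and 0.53 in HB4a (difference -0.53, adjusted p = 0.016), the 1 member called among 70 (0 rose, 3.87% of all genes called). For both drugs 4 members had a lower response in SKBR3 and 0 a higher one (9.82% of all genes called). These were NDUFA13 (-0.05 in SKBR3, 0.44 in HB4a, adjusted p = 0.0152), NDUFB6 (-0.35 and 0.03, adjusted p = 0.0105), ATP5IF1, the peptide inhibitor of ATP synthase (-0.21 and 0.29, adjusted p = 0.00713), and ATP5PD, a peripheral stalk subunit (-0.13 and 0.18, adjusted p = 0.0343). The first 3 held in every fit that left out 1 array, while ATP5PD was lost in 11 of 20 such fits (adjusted p from 0.0519 to 0.0709). ATP5IF1 had 7.11, 7.12, 7.18, 7.41 and 7.36 with both drugs in SKBR3, against 7.45, 7.32, 7.49, 7.54 and 7.43 in vehicle. In HB4a it had 7.10, 6.82, 7.23, 7.11 and 7.10 with both drugs, against 6.83, 6.67, 6.64, 6.92 and 6.86 in vehicle. Its sign thus differed between the lines, although neither difference passed within its own line (adjusted p = 0.0703 and 0.0639).

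For rapamycin 0 members passed between SKBR3 and HB4a (5.03% of all genes called). An unadjusted p under 0.05 in limma was reached by 9 of 70 members and 1230 of 7270 genes. Between C5.2 and HB4a 0 passed for doxorubicin (0.101%), rapamycin (0.0%) or both drugs (0.373%). In that order 6, 11 and 29 of 69 members had an unadjusted p under 0.05 in limma, against 238, 356 and 669 of 6962 genes. For both drugs 68 of 69 member differences were below 0, against 4994 of 6962 genes, with medians of -0.23 and -0.12. With the block the counts were 0 rises and 10 falls for doxorubicin and 1 rise and 8 falls for rapamycin in SKBR3 against HB4a (15.9% and 22.5% of all genes called), and 0 rises and 2 falls for rapamycin in C5.2 against HB4a (2.53%), NDUFB8 and NDUFV3. So the larger number of falls with rapamycin in C5.2 than in HB4a was not shown to be a difference between these lines. With the block the 2 members called among 69 were near the share of all genes.

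The lines differed in many members, as they did in many genes. In vehicle 43 of 70 members were higher and 14 lower in SKBR3 than in HB4a (77.3% of all genes called), 38 of 70 higher and 18 lower in SKBR3 than in C5.2 (78.8%), and 24 of 69 higher and 7 lower in C5.2 than in HB4a (49.2%). The shares of members called, 81.4%, 80.0% and 44.9% in that order, were near or below those of all genes. The median member difference of SKBR3 from HB4a was 0.48, against -0.02 over all genes tested. By complex it was 0.48 in I, 0.85 in II, 0.15 in III, 0.51 in IV and 0.28 in V. COX7B2 passed the filter through SKBR3 alone, so its call is no test; without it 42 of 69 members were higher and 14 lower than in HB4a, 37 higher and 18 lower than in C5.2, and the complex IV median against HB4a was 0.41. For C5.2 against HB4a the medians were 0.12 over members and 0.10 over all genes. Quantile normalization moved the median of all genes by -0.11 in C5.2 against HB4a and by 0.11 in SKBR3 against C5.2. Line cannot be told apart from culture medium and any processing batch here.

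COX7B2 gave the widest difference. It is a paralog of COX7B, a small subunit of complex IV, and is known for expression in testis. The 150 bases before the annotated starts of COX7B2 (chr4:46909246-46909395, minus strand) and COX7B (chrX:77899318-77899467, plus strand) are shown for the pair, and hold none of the 4 motifs.
COX7B2: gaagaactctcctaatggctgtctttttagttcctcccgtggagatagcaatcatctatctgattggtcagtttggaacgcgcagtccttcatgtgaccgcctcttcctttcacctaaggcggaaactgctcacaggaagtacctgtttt
COX7B: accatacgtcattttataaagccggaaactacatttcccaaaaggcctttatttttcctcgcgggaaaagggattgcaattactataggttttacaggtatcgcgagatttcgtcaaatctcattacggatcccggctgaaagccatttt

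COX7B2 had 6.99, 7.01, 6.68, 6.77 and 6.76 in SKBR3 vehicle, 0.28, 0.33, 0.62, 0.43 and 0.40 in C5.2 vehicle, and 0.50, 0.59, 0.54, 0.44 and 0.51 in HB4a vehicle. On all 40 HB4a and C5.2 arrays it lay below the array's own median, between 0.12 and 0.76, so only a bound is given there. Taking the array median as the floor, SKBR3 was at least 35.9-fold higher than HB4a and at least 37.2-fold higher than C5.2. The gene hardly moved with treatment in SKBR3, where group means lay between 6.68 and 6.84. COX7B, measured in all lines, averaged 11 in SKBR3, 10.19 in C5.2 and 10.02 in HB4a.

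**Figure D5:**
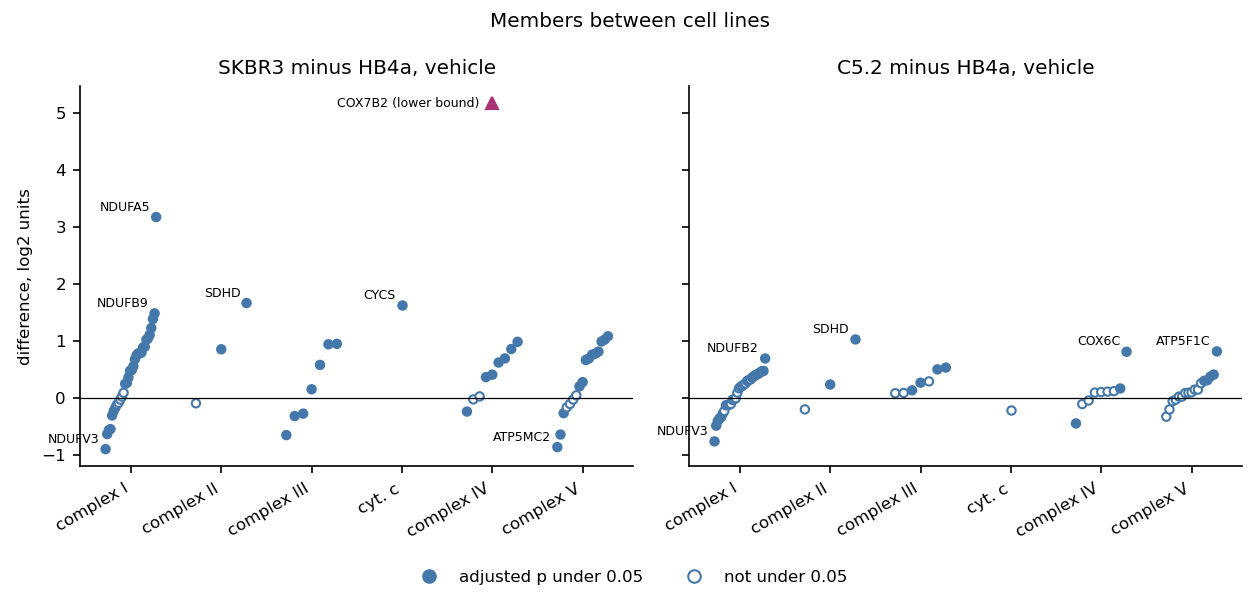
Each point is 1 member's vehicle difference in log2 units, SKBR3 minus HB4a and C5.2 minus HB4a, by complex, with COX7B2 drawn as a lower bound. In SKBR3 the members lie mostly above 0, with a median of 0.48, and NDUFA5 stands at 3.17; in C5.2 the median is 0.12.

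NDUFA5, an accessory subunit of the complex I matrix arm, had 8.38, 7.47, 8.01, 8.28 and 7.71 in SKBR3 vehicle, against 4.83, 4.0, 5.25, 5.22 and 4.69 in HB4a vehicle. The lines were far apart, by 3.17 ± 0.37 (SE) or 9.01-fold (adjusted p = 8.12e-10). The HB4a arrays lay near the filter, where probe signal is weak. SDHD had 8.55, 7.80, 8.12, 8.60 and 7.99 in SKBR3 vehicle, 7.83, 7.35, 7.62, 7.50 and 7.59 in C5.2 vehicle, and 6.93, 6.40, 6.43, 6.53 and 6.47 in HB4a vehicle. SKBR3 and C5.2 were each above HB4a without overlap, by 1.66 and 1.03, and the SKBR3 and C5.2 arrays overlapped at a difference of 0.64 that passed (adjusted p = 0.000557). CYCS was 1.63 higher in SKBR3 than in HB4a and 1.84 higher than in C5.2, and NDUFB9 was 1.48 higher than in HB4a.

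SDHA was 0.85 higher in SKBR3 than in HB4a (adjusted p = 1.94e-10). SDHC differed by -0.10 between SKBR3 and HB4a (adjusted p = 0.428), and by 0.55 when the mean of all its probe sets was used, so no direction is given for it. Among the members lower in SKBR3 than in HB4a, the difference was -0.90 for NDUFV3, -0.86 for ATP5MC2, -0.65 for UQCRB, a small subunit of complex III, -0.64 for ATP5ME, a membrane subunit of ATP synthase, and -0.63 for NDUFA9. CYC1 was also lower, with a difference of -0.28 (adjusted p = 0.0076). Against C5.2, SKBR3 was higher for ATP5F1D by 1.41 and NDUFB10 by 1.30. The differences of SKBR3 from C5.2 were -1.18 for UQCRB, -1.12 for ATP5MC2, -1.01 for NDUFB8, -0.96 for NDUFA7 and -0.86 for NDUFB2. ATP5MC2, the subunit c gene that rose with rapamycin in SKBR3, was thus lower in that line than in the other 2 before treatment.

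Between C5.2 and its parent HB4a the largest increases after SDHD were in ATP5F1C, the gamma subunit of the rotor, by 0.82, COX6C by 0.81, NDUFB2 by 0.69 and UQCRB by 0.53. COX6C, a small subunit of complex IV, averaged 10.09 in C5.2 and 9.28 in HB4a. The UQCRB increase did not pass without C5.2 vehicle 3 or HB4a vehicle 2 (adjusted p from 0.0615 to 0.102). The largest differences below 0 were -0.76 for NDUFV3, -0.49 for NDUFB4, -0.45 for COX6B1, -0.41 for NDUFA8 and -0.36 for NDUFV1, which carries the flavin that accepts electrons from NADH. SDHA was 0.23 higher (adjusted p = 0.0316), and 5 of 10 fits that left out 1 array lost this call (adjusted p from 0.0533 to 0.0904): those without C5.2 vehicle 2, 4 or 6 or HB4a vehicle 1 or 2. CYC1 and CYCS did not pass between C5.2 and HB4a (0.08 and -0.21).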

How the data were processed

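Total RNA of 60 samples, 5 independent experiments per group per the series' design text, was labelled with a 3′ in vitro transcription kit, per the labels' protocols, and hybridised to Affymetrix arrays. RMA, named without a version in the submitters' processing notes, gave the deposited log2 values, 1 per probe set; base 2 was read from the range, -0.60 to 13.08. Whether 1 RMA run covered all arrays, and any scan date, is not given in the sources used here. Titles call the vehicle groups DRC, a name that the treatment text gives to the drug pair; the source names give DMSO. The unit hM in the treatment text was taken for nM.

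Of 54675 probe sets, 41091 carried 1 symbol and 1801 several, which were not used; each gene took its brightest probe set over all arrays (31 members have 1 probe set, 44 more). Differences were fitted with limma 3.58.1 in R 4.3.3 (lmFit, eBayes with trend, two-sided): 20 arrays of a line for treatments, 40 arrays of a pair of lines for line and response differences. Genes with a log2 value over 5 on at least 5 arrays of a fit were tested, 5977 in SKBR3, 6292 in C5.2 and 6167 in HB4a, and p was adjusted over all of them at a threshold of 0.05. The fit was tested on simulated data. A log2 difference of 1 is a doubling. The R package data.table (version 1.17.8) was used with Python 3.11.15, pandas 2.3.3, numpy 2.4.6 and matplotlib 3.10.9.

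Members and context lists were chosen with earlier results of these data known. Genes named by rule were the 3 largest rises and falls called per treatment, the 5 each way per line contrast and 2 each way per other contrast, complex II, CYC1, CYCS, members below the filter, ERBB2, the 3 genes most like ATP5MC1 and up to 2 called genes each way per context list; other members were named after their values were seen.

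The experiment numbers were held to pair arrays if deviations from group means correlated over 0.1 in each of the 5 pairs: all SKBR3 contrasts (lowest 0.238), HB4a doxorubicin and rapamycin against vehicle (lowest 0.428 and 0.461), and C5.2 contrasts except both drugs against vehicle (-0.100). It did not hold for HB4a with both drugs (lowest -0.569), so no pairing is assumed for contrasts with that group. The block fits used all arrays of a line, so the arrays of that group also entered every HB4a value with the block. In the same way the C5.2 arrays with both drugs entered every C5.2 value with the block. The lowest correlation for C5.2 rapamycin against vehicle was 0.105, just over the limit of 0.1. Alternatives were no filter, the mean of all probe sets, quantile normalization, the experiment number as a block, leaving out arrays that stand apart, and leaving out each array in turn.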

Additional observations from a re-analysis of the deposited data

Results flagged for a closer look

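Among 110 sets of 5 arrays, 7 held an array whose gap to the next was wider than Dixon's limit of 0.71 of the range. The sets were values of named members by group and the score over members in each of the 12 groups. Chance alone gives about 1 in 20. HB4a vehicle 2 was low for COX6C, at 8.77 against 9.32 to 9.47 on the other arrays, and for CYCS, at 8.43 against 8.94 to 9.08. HB4a doxorubicin 1 was low for NDUFA13, at 9.65 against 9.94 to 10.04. C5.2 vehicle 1 was low for NDUFA7, at 8.93 against 9.27 to 9.40, and C5.2 vehicle 2 was high for NDUFA9, at 8.75 against 8.41 to 8.50. HB4a vehicle 3 was low for NDUFA8, at 8.63 against 8.92 to 9.01, and HB4a vehicle 1 was high for SDHD, at 6.93 against 6.40 to 6.53.

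In 5 tests the response of a member differed between SKBR3 and HB4a. The difference was -0.53 for NDUFA13 with doxorubicin. With both drugs it was -0.49 for NDUFA13, -0.51 for ATP5IF1, -0.38 for NDUFB6 and -0.31 for ATP5PD. In each of the 5 the response was below 0 in SKBR3 and above 0 in HB4a, though by as little as -0.00 in SKBR3 for NDUFA13 with doxorubicin and 0.03 in HB4a for NDUFB6. Of all genes, 3.87% were called for the doxorubicin response and 9.82% for the response to both drugs.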

How the results depend on the processing

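Counts are members called in either direction. Without the filter 42 of 48 counts and medians stayed close to the reported ones, with the mean of all probe sets 44, after quantile normalization 38, with the replicate block 29 and without the arrays that stand apart 41. Without the filter the count was 0 for both drugs against rapamycin in HB4a, 14 for rapamycin and 10 for both drugs against doxorubicin in C5.2, and 9 for both drugs in SKBR3; more genes shared the adjustment there. With the mean of all probe sets it was 5 for doxorubicin and 3 for both drugs in HB4a, with medians of 0.07 and 0.03 in place of 0.12 and 0.08, and the SKBR3 median for both drugs was -0.07. After quantile normalization it was 13 for rapamycin, 10 for both drugs, 9 for both drugs against doxorubicin and 1 for both drugs against rapamycin in C5.2, and 11 for both drugs in SKBR3; the medians for rapamycin and both drugs were -0.07 and -0.06 in SKBR3, in place of -0.13 and -0.11, and -0.12 and -0.10 in C5.2, and the medians of the difference in response to both drugs were -0.16 in C5.2 and -0.11 in SKBR3 against HB4a. The median of SKBR3 against HB4a was 0.34 with the mean of all probe sets and 0.36 without the filter, and that of SKBR3 against C5.2 was 0.25, 0.20 and, with quantile normalization, 0.29. SDHC in SKBR3 against HB4a was 0.55, in place of -0.10, with the mean of all probe sets, of which 2 averaged under 5 in both lines.

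With the experiment number as a replicate block, counts for doxorubicin were 1 in SKBR3, 9 in C5.2 and 23 in HB4a, for rapamycin 29, 45 and 11, and for both drugs 29, 43 and 17. Against doxorubicin, both drugs gave 27, 41 and 9, and against rapamycin 7 in C5.2 and 12 in HB4a. Response differences gave 10, 9 and 18 in SKBR3 (doxorubicin, rapamycin, both) and 2 and 23 in C5.2 (rapamycin, both), where pairing did not hold for both drugs in C5.2 or HB4a. Without the arrays that stand apart the count was 18, 0 and 2 in HB4a (doxorubicin, rapamycin, both against doxorubicin), 1 and 2 in C5.2 (doxorubicin, both against rapamycin), 9 for both drugs in SKBR3 and 2 for the doxorubicin response of SKBR3 against HB4a.

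Leaving out each array gave 4 to 10 for doxorubicin, 0 to 1 for rapamycin and 2 to 7 for both drugs in HB4a, 0 to 1 against doxorubicin and 0 to 3 against rapamycin. In C5.2 it gave 0 to 1 for doxorubicin, 14 to 27 for rapamycin, 13 to 24 for both drugs, 9 to 22 against doxorubicin (9 without C5.2 both 3) and 0 to 1 against rapamycin. In SKBR3 it gave 8 to 19 for both drugs, and 0 to 2 for the rapamycin response against HB4a. Of 72 named calls, 57 held without each array in turn. Quantile normalization moved the share of rises among all genes called, for rapamycin in C5.2 to 40.4% from 16.2% and for doxorubicin in HB4a to 58.2% from 75.7%, while members called there still went 1 way (0 rises of 13 and 7 of 7). The causes were not tested.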

Other observations

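Genes around the same machinery were counted in the same fits. They are given as counts and medians with no test of the lists, which were chosen with earlier results known. Of 7 genes of mitochondrial DNA with a probe set of their own, 1 passed with any drug, COX3, a core subunit of complex IV, which fell by 0.71 with doxorubicin in C5.2 (adjusted p = 0.027). With rapamycin 0 of 6 passed in C5.2 (17.4% of all genes called), with a median of -0.00, and 0 of 7 in SKBR3 (18.3%), with a median of 0.09 (limma, 0 at an unadjusted p under 0.05 in either). In vehicle the differences of SKBR3 from HB4a were -1.40 for COX3, -0.39 for COX1, another core subunit, and 0.55 for ND6, a core subunit of complex I.

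Of 75 genes of the mitochondrial ribosome, 72 were tested in C5.2, where 1 rose and 22 fell with rapamycin (median -0.25), and 73 in SKBR3, where 2 rose and 9 fell (median -0.11). That is 31.9% in C5.2 against 17.4% of all genes called, and 15.1% in SKBR3 against 18.3%, below the background. With both drugs 1 rose and 24 fell in C5.2, 4 rose and 10 fell in SKBR3, and 1 rose and 6 fell of 75 in HB4a (34.7%, 19.2% and 9.33%, against 21.0%, 22.0% and 17.4% of all genes). Of 49 assembly factors, 0 rose and 8 fell of 38 with rapamycin in C5.2, 1 rose and 6 fell of 40 in SKBR3, and 0 passed of 40 in HB4a (limma, 8 at an unadjusted p under 0.05). The shares of 21.1% in C5.2 and 17.5% in SKBR3 were near those of all genes. UQCC1, which helps to assemble complex III, fell by 0.66 and BCS1L, which inserts its iron-sulfur protein, by 0.51 with rapamycin in C5.2. SURF1, an assembly factor of complex IV, rose with both drugs by 0.41 in SKBR3, 0.39 in C5.2 and 0.56 in HB4a.

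Among subunits whose symbols lie outside the naming rule, NDUFAB1, the acyl carrier protein of complex I, fell with rapamycin by 0.25 in SKBR3 and by 0.25 in C5.2. COX7A2L, which links complexes III and IV, rose by 0.51 in SKBR3 (adjusted p = 0.0017). COXFA4L3 had the widest differences of this list: it rose in SKBR3 by 1.03 with doxorubicin (adjusted p = 0.0171), the list's 1 call with that drug in that line, and by 1.34 with both drugs, and in vehicle it differed from HB4a by -2.25 in SKBR3 and by -5.64 in C5.2. Of 15 genes of pyruvate dehydrogenase and the citric acid cycle, 11 were higher and 2 lower in SKBR3 than in HB4a in vehicle, with a median of 1.12, which is 86.7% called against 77.3% of all genes. With both drugs 4 of 14 of these fell in SKBR3 and 4 of 13 in C5.2, and 0 rose in either line. These shares, 28.6% and 30.8%, stand beside 22.0% and 21.0% of all genes called. Of 13 regulators of mitochondrial biogenesis, 8 were tested in SKBR3 and 1 rose with rapamycin, 7 in C5.2 and 1 fell, and 5 in HB4a with 0 called (limma, 0 at an unadjusted p under 0.05). The shares of 12.5%, 14.3% and 0% were below the 18.3%, 17.4% and 3.18% of all genes called.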
